A study of Mus musculus with 10 samples.

Results

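The heat shock genes described here are 10 genes of the cytosolic and mitochondrial chaperone system: Hspa1a, Hspa1b, Hspa8, Hsph1, Dnajb1, Bag3, Hsp90aa1, Hspb1, Hspd1 and Hspe1. They were found by gene symbol in a table of 18994 genes, and all 10 were present and passed the filter on low counts. The tissue was skin of the cheek, from C57BL/6 mice that were 6 to 8 weeks old and had been shaved 3 days before the injection. In 1 group, 5 mice had received 1 µg of MMP9, a gelatinase of the matrix metalloproteinase family, in 5 µL into the skin of the right cheek. In the other group, 5 mice had received the same volume of vehicle. Tissue was taken 4 hours after the injection, and each library of polyadenylated RNA came from a separate mouse. What the vehicle held, where the MMP9 came from and which sex the mice were is not given in the sources used here, and the samples include no group without an injection. The comparison asks whether heat shock transcripts of the cheek differ after MMP9.

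Heat shock proteins bind unfolded or partly folded proteins, keep them from clumping, and help them to fold or be degraded. In an unstressed cell the transcription factor HSF1 is held inactive by chaperones. When unfolded proteins draw these chaperones away, HSF1 forms trimers, binds heat shock elements in the promoters of its target genes and raises their transcription within minutes. A heat shock element is a run of short GAA units in alternating direction. In skin, keratinocytes carry abundant HSP27 (Hspb1), and heat, ultraviolet light and mechanical injury are known inducers of the strongly inducible members, above all Hspa1a and Hspa1b. Skeletal muscle, which lies under the skin of the cheek, also uses several of these chaperones to maintain its contractile filaments.

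The promoter sequences show how alike the inducible HSP70 genes are and where heat shock element units lie beside other members. RefSeq promoter windows on GRCm38.p6 (250 bases before to 50 bases after an annotated start) were found for 8 of the 10 genes, in 11 windows. Hspa8 and Hsp90aa1 had no entry. The 250 bases before the start of Hspa1a (chr17:34972157-34972406, minus strand) and Hspa1b (chr17:34959239-34959488, minus strand) are shown because their reads are hard to tell apart. Shorter stretches are shown for Hspe1 and Hspd1 (chr1:55088053-55088082, plus strand for Hspe1 and minus strand for Hspd1), Hspb1 (chr5:135887787-135887844, plus strand) and Hsph1 (chr5:149636351-149636380, minus strand). Capitals mark matches to the heat shock element units GAANNTTC and TTCNNGAA, read on both strands.
Hspa1a: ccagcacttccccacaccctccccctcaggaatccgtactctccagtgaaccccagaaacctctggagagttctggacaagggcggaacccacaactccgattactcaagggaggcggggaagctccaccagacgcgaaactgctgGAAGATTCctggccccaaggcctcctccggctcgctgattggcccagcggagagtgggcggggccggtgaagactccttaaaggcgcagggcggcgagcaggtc
Hspa1b: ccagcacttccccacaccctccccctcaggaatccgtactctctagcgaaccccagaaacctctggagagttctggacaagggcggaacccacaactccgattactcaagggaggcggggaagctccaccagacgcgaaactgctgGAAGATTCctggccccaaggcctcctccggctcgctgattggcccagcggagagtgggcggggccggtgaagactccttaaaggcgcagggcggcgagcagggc
Hspe1: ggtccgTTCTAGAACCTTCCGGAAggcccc
Hspd1: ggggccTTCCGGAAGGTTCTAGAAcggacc
Hspb1: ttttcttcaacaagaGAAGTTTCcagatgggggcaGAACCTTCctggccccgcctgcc
Hsph1: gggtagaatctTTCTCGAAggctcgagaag

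Over the whole window, Hspa1a and Hspa1b differed at 4 of 300 bases and were 98.7% identical. Counted from 1 at the 5′ end of the window, with the base of Hspa1a first, the differences were C44T, T47C, T249G and C276T. The single match in capitals is the same in both. Hspe1 and Hspd1, which encode the partner chaperonins HSP10 and HSP60 of the mitochondrial matrix, lie head to head, and the same stretch appears in the window of each in opposite directions. There the motif matches run together into alternating units, between positions 55088059 and 55088076 of chromosome 1. A motif of 3 alternating units, GAANNTTCNNGAA, was found in 4 of the 11 windows, against 0.603% of all 32851 promoter windows of the same length. These were windows of 3 of the 8 genes (Hspd1, Hspe1 and Hsph1). They do not hold 4 separate sites, because Hspd1 and Hspe1 share the bases given above. Both Hsph1 windows hold the same match (149636288 to 149636300 of chromosome 5), which lies after the start and outside the stretch shown. The shorter GAANNTTC, which is part of that motif, was found in 8 of the 11 windows (7 of the 8 genes, all but Dnajb1), against 7.86% of all windows. TTCNNGAA was found in 4 of the 11 windows (3 of the 8 genes), against 8.52%. CCAAT, the motif of the CCAAT box, was found in 6 of the 11 windows (5 of the 8 genes), against 37.4%. All were searched on both strands. A match describes letters in a window and was not measured as a bound site.

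The 10 libraries held between 17121541 and 19443099 estimated reads, and 17225 to 17553 genes were detected in each. A heat shock gene had between 529 and 35325 reads in a library, so counting error was small beside the spread between mice. Markers of keratinocytes (10 genes, summed 17672 to 27932 TPM in vehicle and 18640 to 27830 TPM in MMP9 libraries) and of skeletal muscle (12 genes, 25468 to 48817 and 25929 to 50140 TPM) were abundant in both groups, so the tissue held epidermis and muscle. TPM is a level scaled by transcript length and by the library's sum. Reads of 50 bases limit some members. In GENCODE M21 transcripts, 66.3% of the windows of 50 bases in Hspa1a and 62.3% of those in Hspa1b also occur in another gene, mostly in each other. The share was 74.8% for Hspa8, 58.5% for Hsp90aa1, 51.6% for Hspb1 and 44.8% each for Hspe1 and Hspd1. For Hspb1, Hspa8, Hsp90aa1 and Hspd1 the partners with the most shared windows are gene models without deposited counts. Some of these are named as pseudogenes. For Hspe1 the partner is mostly another gene model of that annotation. Dnajb1 had a share of 0.441%, and Hsph1 and Bag3 had 0%. The sources used here do not give how such reads were assigned, so the split between Hspa1a and Hspa1b is uncertain.

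One library stood apart by composition. In MMP9 mouse 4, 83 ribosomal protein genes took 12.8% of the counts, against 6.53% to 7.39% in the other 9 libraries, and its TMM factor (the scaling that edgeR applies to a library's total) was 0.8434. The deposited TPM values carry no such scaling. In TPM this library was the lowest of the 10 for 8 of the 10 heat shock genes, and in TMM-scaled CPM (counts relative to the scaled library total) for 1 of them, against 25% of all genes in CPM. The share of all genes lowest there in TPM was not counted, so the 8 of 10 cannot be read as particular to these genes. Levels below are TMM-scaled CPM unless TPM is named, and values of the members that this library moves most are given without it too.

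No heat shock gene passed the test between the groups. By edgeR's quasi-likelihood test with Benjamini-Hochberg adjustment over 15250 genes, 0 of the 10 members passed the threshold of 0.05, and 0% of all genes did. At an unadjusted p under 0.05, 0 of the 10 members passed by edgeR, against 3.19% of all genes. DESeq2 and limma-voom also called 0 members, against 0.00528% and 0% of all genes. The levels of the groups overlapped for all 10 genes, whereas 0.564% of all genes had groups that did not overlap. The estimated log2 fold change of MMP9 over vehicle was below 0 for 9 of the 10 members, against 46.3% of all genes, with a median of -0.19 beside 0.01 for all genes. Without vehicle mouse 1 it was below 0 for 4 of the 10. In bulk tissue, fewer cells of a type and less RNA per cell cannot be told apart, so a level here is a level per mass of mixed skin RNA.

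**Figure D1:**
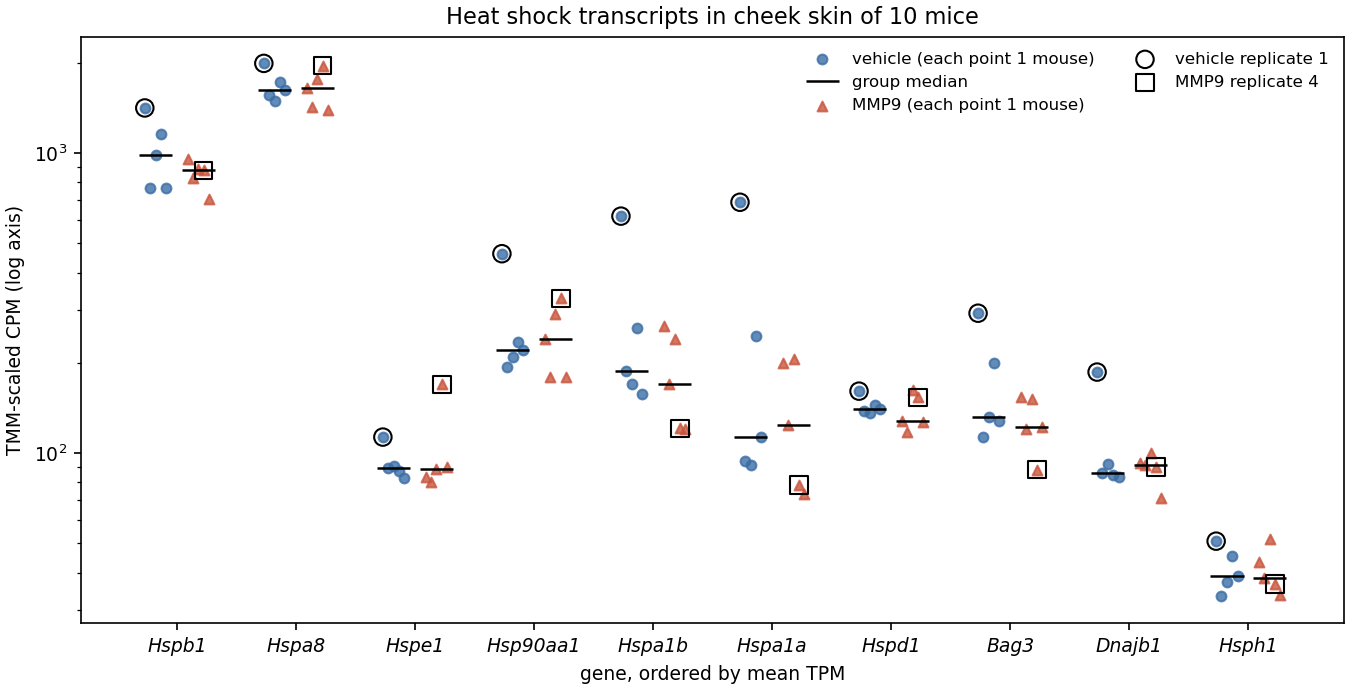
Level of each heat shock gene in each mouse, in TMM-scaled CPM on a log axis, with genes ordered by mean TPM; circles are vehicle, triangles MMP9, and bars the group medians. Vehicle mouse 1 (ringed) is at 686 CPM for Hspa1a and the groups overlap for every gene.

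Hspa1a (Entrez 193740), an inducible cytosolic HSP70, had the widest spread. It measured 686, 93.9, 91.6, 245 and 114 CPM in vehicle mice 1 to 5. In MMP9 mice 1 to 5 it measured 199, 124, 206, 78.4 and 73.2 CPM. Vehicle mouse 1 stood alone at the top, and the other 9 mice of both groups covered one common range from 73.2 to 245 CPM. Vehicle mice averaged 246 ± 254 CPM and MMP9 mice 136 ± 63.7 CPM (SD, n = 5). This gave a log2 fold change of -0.85 ± 0.58 (SE), whose 95% interval ran from -2.13 to 0.42 (edgeR adjusted p = 0.981). Without vehicle mouse 1 it was 0.00066, and without MMP9 mouse 4 it was -0.71.

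Hspa1b (Entrez 15511) encodes nearly the same protein as Hspa1a. Its levels in vehicle mice 1 to 5 were 617, 188, 170, 262 and 158 CPM, and in MMP9 mice 1 to 5 they were 265, 170, 241, 121 and 120 CPM. Again vehicle mouse 1 was the highest, and the next was an MMP9 mouse. The means were 279 ± 193 and 183 ± 67.1 CPM (SD, n = 5), with a log2 fold change of -0.60 ± 0.40 (SE, edgeR adjusted p = 0.981). This became -0.08 without vehicle mouse 1 and -0.49 without MMP9 mouse 4. Because reads may be exchanged between the 2 genes, their counts were also added together. The sum was 1303, 282, 261, 507 and 272 CPM in vehicle and 464, 295, 446, 199 and 193 CPM in MMP9. The order of the mice in the sum was led by vehicle mice 1 and 4, followed by MMP9 mice 1 and 3. For the sum the log2 fold change was -0.72 ± 0.48 (SE, edgeR adjusted p = 0.981), -0.05 without vehicle mouse 1 and -0.59 without MMP9 mouse 4.

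Hspa8 (Entrez 15481), the HSP70 that cells make constitutively, was far steadier. It measured 1992, 1560, 1488, 1727 and 1624 CPM in vehicle and 1653, 1427, 1765, 1956 and 1395 CPM in MMP9. Vehicle mouse 1 and MMP9 mouse 4 were the highest, and the highest mouse was 1.43-fold above the lowest. The means were 1678 ± 196 and 1639 ± 235 CPM (SD, n = 5), and the log2 fold change was -0.03 with a 95% interval from -0.33 to 0.26 (edgeR adjusted p = 0.99). The TPM ratio of Hspa1a plus Hspa1b to Hspa8, taken within each library and so free of scaling between libraries, was 0.488, 0.135, 0.131, 0.219 and 0.125 in vehicle and 0.209, 0.154, 0.189, 0.0760 and 0.103 in MMP9. In every mouse the constitutive gene exceeded the inducible pair. The difference between the groups lay within the spread of the mice (log2 difference -0.46, two-sided exact permutation p = 0.373, 0.702 after adjustment over 3 ratios, smallest attainable p 0.00794). Without vehicle mouse 1 that difference was -0.12, and without MMP9 mouse 4 it was -0.25.

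Hsph1 (Entrez 15505), an HSP110 that exchanges the nucleotide of HSP70, was the lowest member. It measured 50.9, 33.4, 37.3, 45.3 and 38.9 CPM in vehicle and 43.4, 38.3, 51.8, 36.7 and 33.6 CPM in MMP9. The highest mouse here was MMP9 mouse 3, closely followed by vehicle mouse 1. The means of 41.2 ± 6.95 and 40.8 ± 7.14 CPM (SD, n = 5) gave a log2 fold change of -0.01 with a 95% interval from -0.33 to 0.30 (edgeR adjusted p = 0.997).

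Dnajb1 (Entrez 81489), an HSP40 that delivers clients to HSP70 and stimulates its ATPase, was uniform but for 1 mouse. It measured 186 CPM in vehicle mouse 1 and 85.7, 92.1, 84.9 and 83.1 CPM in the other vehicle mice, against 92.4, 91.2, 99.8, 89.9 and 70.8 CPM in MMP9. Without vehicle mouse 1, the coefficient of variation of the vehicle group was 4.53% in place of 42.1%. The log2 fold change of -0.26 ± 0.22 (SE, edgeR adjusted p = 0.981) became 0.04 without that mouse.

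Bag3 (Entrez 29810), a cochaperone that links HSP70 and small heat shock proteins to selective autophagy and is prominent in muscle, measured 293, 113, 132, 200 and 128 CPM in vehicle and 153, 121, 151, 88.1 and 122 CPM in MMP9. Vehicle mice 1 and 4 were the highest and MMP9 mouse 4 the lowest. The means were 173 ± 74.8 and 127 ± 26.8 CPM (SD, n = 5). The fold change on the log2 scale was -0.45 with a 95% interval from -1.02 to 0.13 (edgeR adjusted p = 0.981). It was -0.17 without vehicle mouse 1 and -0.34 without MMP9 mouse 4.

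Hsp90aa1 (Entrez 15519), the inducible cytosolic HSP90, measured 462, 193, 209, 234 and 221 CPM in vehicle and 240, 179, 291, 328 and 180 CPM in MMP9. Vehicle mouse 1 was the highest and MMP9 mouse 4 the second highest. The log2 fold change of -0.12 ± 0.26 (SE, edgeR adjusted p = 0.986) became 0.19 without vehicle mouse 1 and -0.25 without MMP9 mouse 4. Hsp90ab1 (Entrez 15516), the constitutive HSP90, varied by 3.86% over the 10 libraries. The TPM ratio of Hsp90aa1 to Hsp90ab1 was 0.318 in vehicle mouse 1 and 0.132 to 0.232 in the other 9 mice. Its log2 difference between the groups was -0.03 (two-sided exact permutation p = 0.905, 0.905 after adjustment over 3 ratios), and 0.18 without vehicle mouse 1.

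Hspb1 (Entrez 15507), the small heat shock protein HSP27 that holds unfolding proteins and guards actin and keratin filaments, was the most abundant member by TPM. It measured 1415, 766, 986, 1162 and 765 CPM in vehicle and 957, 828, 888, 877 and 705 CPM in MMP9. All 5 MMP9 mice lay below the vehicle median of 986 CPM, but only MMP9 mouse 5 lay below the lowest vehicle mouse. The means were 1019 ± 277 and 851 ± 93.5 CPM (SD, n = 5), with a log2 fold change of -0.26 and a 95% interval from -0.66 to 0.14 (edgeR adjusted p = 0.981). Without vehicle mouse 1 the estimate was -0.11.

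Hspd1 (Entrez 15510) and Hspe1 (Entrez 15528) encode the barrel and the lid of the mitochondrial chaperonin. Hspd1 was the steadiest member, at 161, 138, 136, 145 and 141 CPM in vehicle and 128, 117, 162, 154 and 127 CPM in MMP9. Its log2 fold change was -0.07 with a 95% interval from -0.30 to 0.17 (edgeR adjusted p = 0.981). Hspe1 measured 113, 88.9, 90.6, 87.2 and 82.8 CPM in vehicle and 83.2, 80.2, 88.7, 169 and 90.0 CPM in MMP9. A single library, MMP9 mouse 4, gave Hspe1 the only log2 fold change above 0 among the members (0.14 ± 0.20, SE, edgeR adjusted p = 0.981), and without it the value was -0.12. In TPM that library stood less far out, at 259 against 194 to 216 in the other MMP9 mice. The TPM ratio of Hspe1 to Hspd1 was 3.54 in MMP9 mouse 4 and 1.75 to 2.27 in the other 9 mice, and its log2 difference between the groups was 0.17 (two-sided exact permutation p = 0.468, 0.702 after adjustment over 3 ratios). Without MMP9 mouse 4 that difference was 0.012 (exact permutation p = 0.905), and without MMP9 mouse 3 it was 0.27 (exact permutation p = 0.0794). In this library the share of ribosomal protein transcripts was also high, as given above. Its part in the level of Hspe1 was not tested.

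**Figure D2:**
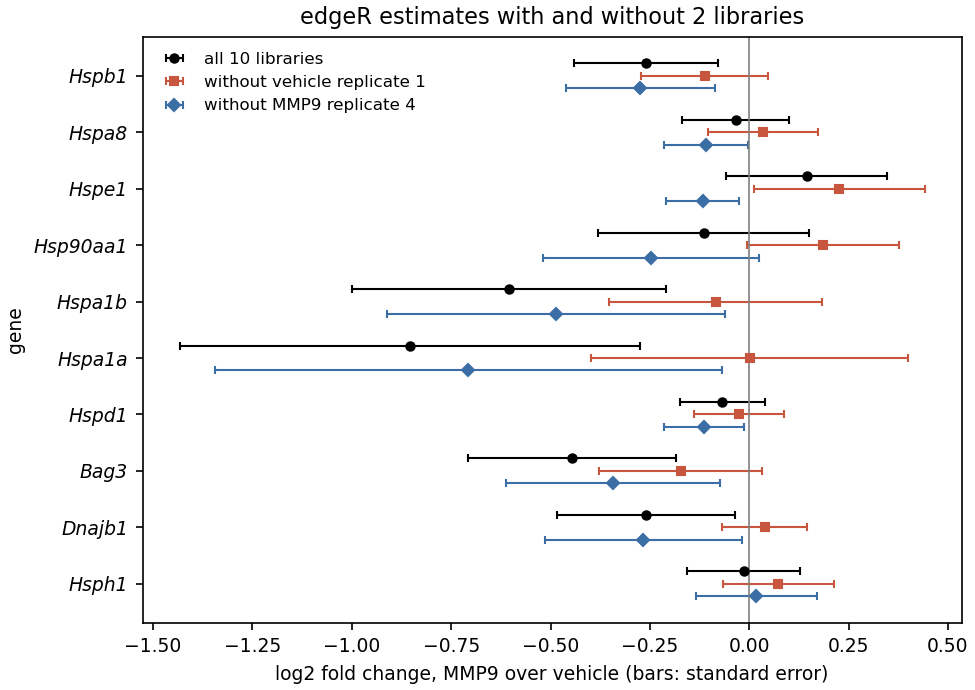
Log2 fold change of MMP9 over vehicle for each heat shock gene by edgeR, with bars of 1 standard error, from all 10 libraries (circles), without vehicle mouse 1 (squares) and without MMP9 mouse 4 (diamonds). For Hspa1a the estimate moves from -0.85 to 0.00066 when vehicle mouse 1 is left out.

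By mean TPM, the order of the members from highest to lowest was Hspb1, Hspa8, Hspe1, Hsp90aa1, Hspa1b, Hspa1a, Hspd1, Bag3, Dnajb1 and Hsph1. For Hspb1 the vehicle mice averaged 1963 ± 503 TPM and the MMP9 mice 1598 ± 354 TPM, and for Hspa8 these values were 1347 ± 144 and 1262 ± 200 TPM (SD, n = 5). Hspb1 exceeded Hspa8, and Hspa8 exceeded Hspe1, in all 10 libraries. At the other end, Bag3 exceeded Dnajb1 and Dnajb1 exceeded Hsph1 in all 10 libraries, and Hsph1 was at 20.3 ± 3.09 and 19.7 ± 5.68 TPM. The middle of the order was not firm. Hspa1a was above Hspd1 in 4 of 10 libraries, and Hsp90aa1 above Hspa1b in 7 of 10. Together the 10 genes made up 0.428 ± 0.103% of all TPM in vehicle (0.348% to 0.599%) and 0.365 ± 0.0706% in MMP9 (0.279% to 0.439%, SD, n = 5).

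The members differed strongly in how much they varied from mouse to mouse. Over the 10 libraries the coefficient of variation was 96.3% for Hspa1a, 62.9% for Hspa1b, 38.8% for Bag3, 34.4% for Hsp90aa1 and 32.9% for Dnajb1. It was 12.4% for Hspa8 and 10.5% for Hspd1. Among all 15250 genes tested, the dispersion that edgeR estimated for Hspa1a lay at percentile 97.8 and that for Hspa1b at 95.2, while Hspa8 lay at 43.2 and Hspd1 at 28.7. Hspe1, the partner of Hspd1, varied by 27.6% and lay at percentile 74.3, with MMP9 mouse 4 as its highest library. The inducible HSP70 genes were thus among the more variable transcripts of these samples, and Hspa8 and Hspd1 were not.

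**Figure D3:**
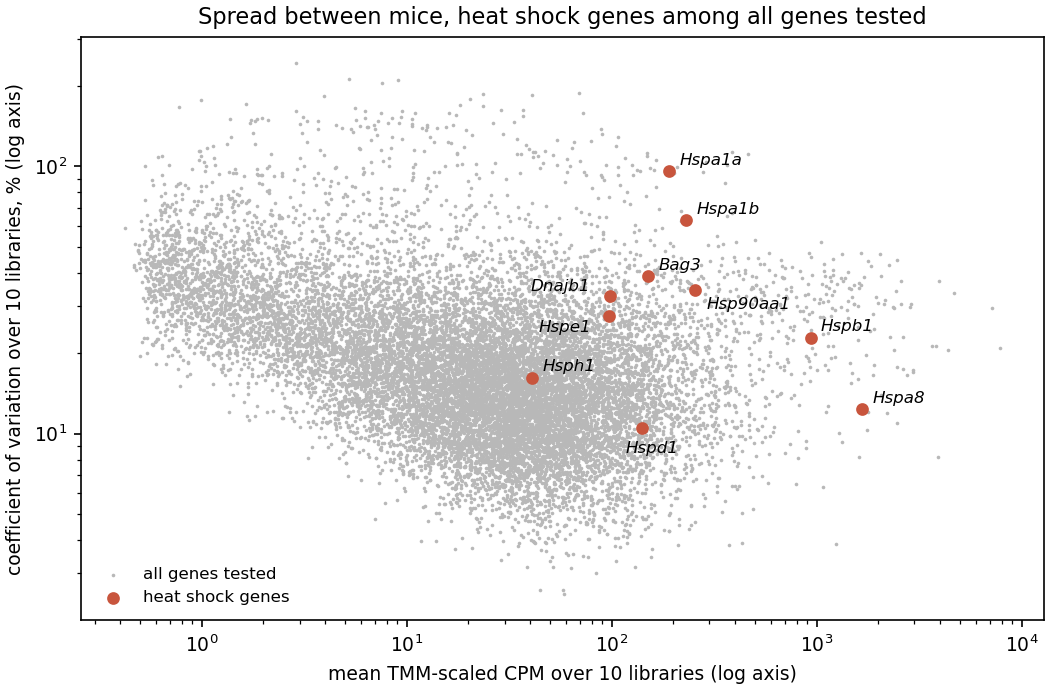
Coefficient of variation over the 10 libraries against mean TMM-scaled CPM, both on log axes, for all 15250 genes tested (grey) and the heat shock genes (red). Hspa1a at 96.3% and Hspa1b at 62.9% lie above most genes of similar level, while Hspd1 at 10.5% lies among them.

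Much of this spread lay in 1 mouse. Vehicle mouse 1 was the highest of the 10 libraries for 7 of the 10 members, in CPM as in TPM, whereas it was the highest for 6.45% of all genes in CPM. The exceptions were Hsph1 and Hspd1, highest in MMP9 mouse 3, and Hspe1, highest in MMP9 mouse 4. Relative to the median of the other 9 libraries, vehicle mouse 1 was 6.04-fold higher for Hspa1a, 3.62-fold for Hspa1b, 2.29-fold for Bag3, 2.09-fold for Hsp90aa1 and 2.07-fold for Dnajb1. These 5 of 10 members were at least 2-fold higher there, against 1.32% of all genes. The excess was 1.61-fold for Hspb1, 1.33-fold for Hsph1, 1.28-fold for Hspe1, 1.23-fold for Hspa8 and 1.16-fold for Hspd1. The graded order placed the inducible cytosolic genes first and the constitutive and mitochondrial ones last. Its total count of 17670158, its TMM factor of 0.9979 and its share of ribosomal protein counts (7.33%) lay within the range of the other libraries. Its skeletal muscle score (for each of 12 markers log2 CPM relative to the vehicle mean, then the median) was 0.46, beside -0.50 to 0.57 in the other libraries, and its keratinocyte score was 0.00, beside -0.37 to 0.32. The sources used here give no record of handling or time of collection for single mice, and their part was not tested.

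**Figure D4:**
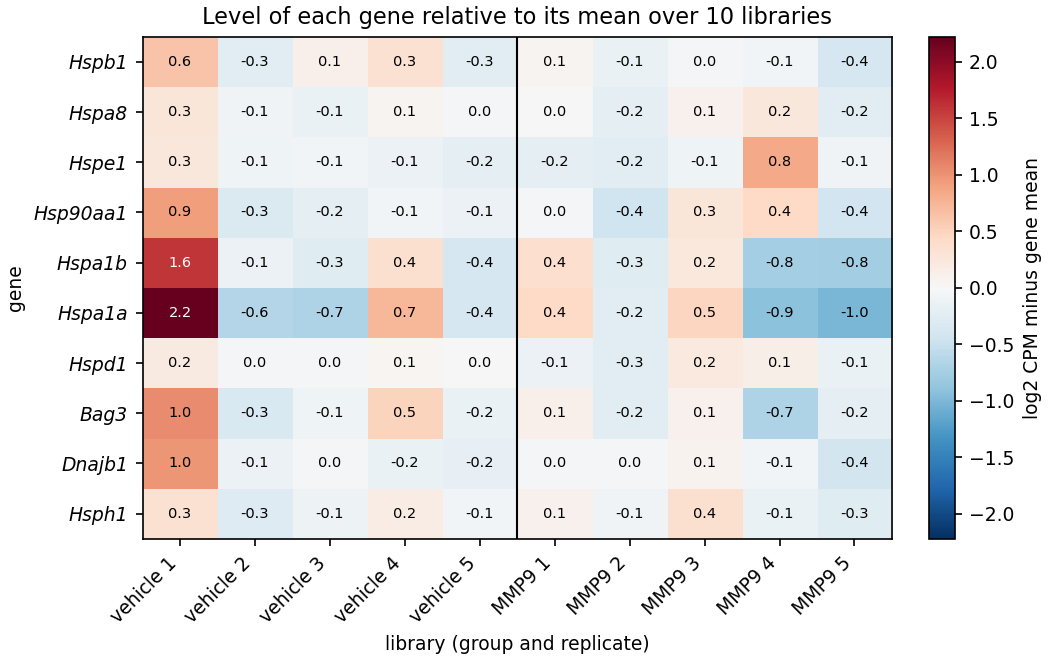
Level of each heat shock gene (rows) in each library (columns) as log2 CPM minus the gene's own mean over the 10 libraries, with a line between vehicle and MMP9. Vehicle mouse 1 is the highest library for 7 of the 10 genes, with Hspa1a at 686 CPM, and MMP9 mouse 4 is high for Hspe1 and low for Hspa1a, Hspa1b and Bag3.

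Leaving that mouse aside, no single order of the mice held for all inducible genes. Vehicle mouse 4 had the second highest Hspa1a (245 CPM), Bag3 (200 CPM) and Hspb1 (1162 CPM). The same mouse ranked 3 of 10 for Hspa1b and Hsph1 and 5 of 10 for Hsp90aa1. For Dnajb1, vehicle mouse 4 (84.9 CPM) lay among vehicle mice 2, 3 and 5. The lowest CPM of Hspa1a, Hspa1b, Dnajb1, Hspb1 and the constitutive Hspa8 was in MMP9 mouse 5. The share of all genes that were lowest in that mouse was not counted.

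Members were compared pair by pair across the 10 mice, on log2 CPM. Of 45 pairs, 21 had a Pearson correlation with a permutation p, adjusted over the 45 pairs, under 0.05, and 6 also had such a Spearman correlation. The median r was 0.67, and 4 pairs had a negative r, each of them with Hspe1. Without vehicle mouse 1, 5 pairs passed by Pearson correlation. These 5 pairs passed in each of the 10 sets that leave out 1 mouse. They link Hspa1a with Hspa1b, Hsph1 and Bag3, Hspa1b with Bag3, and Hspa8 with Hsp90aa1. Hsph1 passed with Hspa1b and with Bag3 in 9 of the 10 sets each, and in neither case without vehicle mouse 1. Hspa1a, Hspa1b, Hsph1 and Bag3 are taken below as 1 group of genes, and Hspa8 and Hsp90aa1 as the other. None of the 8 pairs between these groups of genes passed with all mice (r from 0.40 to 0.70, adjusted p from 0.0516 to 0.304). Without MMP9 mouse 4 all 8 passed (r from 0.83 to 0.93, adjusted p from 0.00478 to 0.0119), and 31 of the 45 pairs passed in all. Whether these 8 pairs passed thus depended on MMP9 mouse 4. Without vehicle mouse 1, 0 of the 8 passed, with r from -0.08 to 0.53. The gene groups were drawn from these same correlations, so the 8 pairs are no separate test of a separation. Each group alone has 5 mice, too few for a correlation within it.

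Within the first group of genes, 4 pairs passed in each of those sets. Between Hspa1a and Hspa1b, r was 0.97 and rho 0.90 (n = 10, permutation p = 4e-05 and 0.00075, adjusted 0.0009 and 0.0169), and r was 0.91 without the 2 mice farthest from the median. Shared reads can tie these 2 genes together, and how far they did was not tested. Hspa1a and Hsph1, which share no 50-base window, had r = 0.87 and rho = 0.88 (n = 10, permutation p = 0.00057 and 0.00161, adjusted 0.00513 and 0.0181), and r = 0.89 without the 2 farthest mice. Hspa1a and Bag3 had r = 0.94 and rho = 0.79 (n = 10, permutation p = 8e-05 and 0.00878, adjusted 0.0012 and 0.0564), and r = 0.77 without the 2 farthest mice. The rank correlation of that pair missed the threshold. Hspa1b and Bag3 had r = 0.93 and rho = 0.76 (n = 10, permutation p = 0.00023 and 0.0151, adjusted 0.00259 and 0.0774).

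Hspa8 and Hsp90aa1, the constitutive HSP70 and the inducible HSP90, were the remaining pair. Here r was 0.93 and rho 0.96 (n = 10, permutation p = 2e-05 and 6e-05, adjusted 0.0009 and 0.0027), with r = 0.91 without the 2 farthest mice and 0.95 without vehicle mouse 1. Hspd1 was also correlated with Hspa8, where r was 0.85 and rho 0.88 (n = 10, permutation p = 0.00231 and 0.00153, adjusted 0.0138 and 0.0181). When vehicle mouse 1 was left out, r between Hspa8 and Hspd1 was 0.81 and missed the threshold (permutation p adjusted over the 45 pairs = 0.0598). Both Hspa8 and Hsp90aa1 also share much of their sequence with other gene models, as given above. The relations between the gene groups depended on single mice in both directions. For Hspa1a and Hsp90aa1, r was 0.70 with all mice (n = 10, permutation p = 0.0263, adjusted 0.0516; rho = 0.48, permutation p = 0.166, adjusted 0.268), 0.27 without vehicle mouse 1 and 0.92 without MMP9 mouse 4. Hspe1 and Hspd1, which share the promoter stretch shown above, had r = 0.53 and rho = 0.42 (n = 10, permutation p = 0.115 and 0.234, adjusted 0.152 and 0.301). This pair did not pass.

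**Figure D5:**
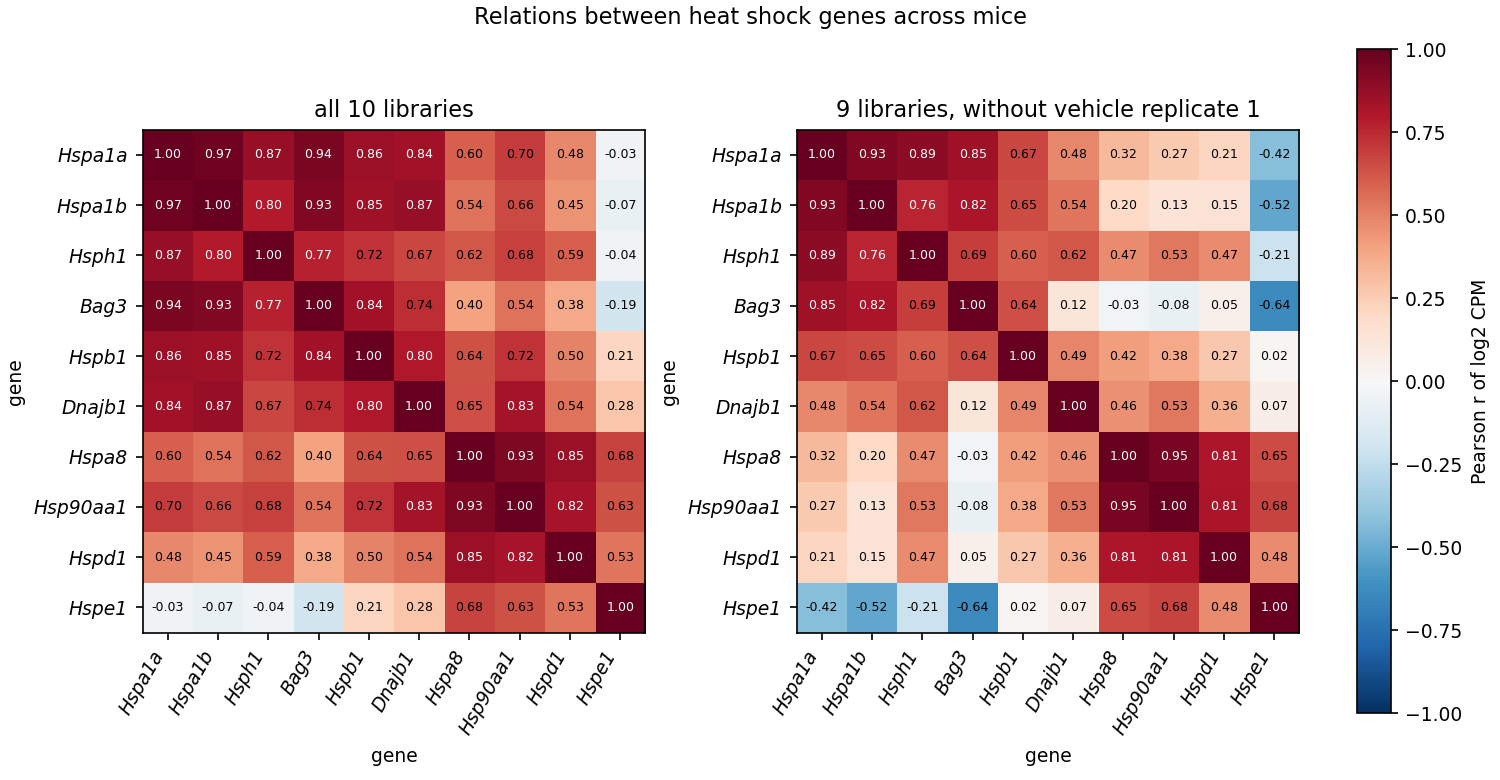
Pearson r of log2 CPM between each pair of heat shock genes over all 10 libraries (left) and over 9 libraries without vehicle mouse 1 (right), on a colour scale from -1 to 1. On the right, r between Hspa1a and Hspa1b is 0.93 and r between Hspa8 and Hsp90aa1 is 0.95, while r between Hspa1a and Hsp90aa1 goes from 0.70 to 0.27.

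The other genes of the chaperone pathway were read from lists written down for this report, and 0 of their genes passed the test in either direction. Among 31 other chaperones and heat shock factors, most of them cytosolic or mitochondrial, 0 were called higher and 0 lower by edgeR. The log2 fold change was above 0 for 5 and below 0 for 26, against 46.3% of all genes below 0, with a median of -0.10. These estimates include vehicle mouse 1, which moved several of them, as given below. Hsf1 (Entrez 15499), the master regulator itself, was steady at 47.6 to 56.8 CPM in all 10 mice, with a log2 fold change of -0.04 ± 0.07 (SE, edgeR adjusted p = 0.981). Hspa2, an HSP70 best known from the testis, and Hspb7, a small heat shock protein of striated muscle, had the smallest p of this list, with log2 fold changes of -0.25 and -0.51 (both edgeR adjusted p = 0.981). Hspa9, the HSP70 of mitochondria, was at 249 ± 13.0 and 249 ± 40.8 CPM (SD, n = 5).

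In the same list, 6 of the 31 genes were at least 2-fold higher in vehicle mouse 1 than the median of the other 9 libraries: Dnaja4, Dnajb4, Hspb3, Hspb7, Hspb8 and Cryab. They were named after their values were seen. With all mice their log2 fold changes, in that order, were -0.30, -0.17, -0.26, -0.51, -0.39 and -0.54. Without vehicle mouse 1 they were 0.035, 0.11, 0.059, -0.33, -0.14 and -0.28. Cryab, a small heat shock protein abundant in muscle and lens, measured 1160 CPM in vehicle mouse 1 and 1027 CPM in vehicle mouse 4, against 354 to 580 CPM in the other 8 mice. Hspb7 was likewise at 594 and 629 CPM in these mice and at 199 to 325 CPM in the others. For Cryab and Hspb7, vehicle mice 1 and 4 thus stood together. They were also the highest for Bag3, at 293 and 200 CPM, but vehicle mouse 4 lay nearer to MMP9 mouse 1 at 153 CPM. Other small heat shock proteins of the list differed. For Hspb6, MMP9 mouse 5 (736 CPM) lay above vehicle mouse 1 (718 CPM). For Hspb2, MMP9 mouse 4 (20.3 CPM) lay close to vehicle mouse 1 (20.9 CPM). The skeletal muscle scores of vehicle mice 1 and 4 were 0.46 and 0.44. Those of MMP9 mice 4 and 5, with Cryab at 437 and 425 CPM, were 0.57 and 0.45. The part of muscle content in these levels was not tested.

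Among 19 cochaperones, 0 were called, with 8 estimates above and 11 below 0 (46.3% of all genes were below 0) and a median of -0.02. Fkbp5, a cochaperone of steroid receptors that glucocorticoids induce, had the smallest p with a log2 fold change of -0.33 ± 0.20, followed by Cacybp at 0.19 ± 0.18 (SE, both edgeR adjusted p = 0.981). Cacybp was highest in MMP9 mouse 4, and its log2 fold change was -0.028 without that mouse. Of the 8 subunits of the cytosolic chaperonin CCT, which folds actin and tubulin, 0 were called, with a median of 0.06. Cct8 had a log2 fold change of 0.11 and Tcp1 of 0.07. Both were highest in MMP9 mouse 4, and without it the values were 0.0026 and -0.032. In neither list was any gene at least 2-fold higher in vehicle mouse 1 than the median of the others.

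Among 17 genes of the endoplasmic reticulum stress response, 0 were called, with a median of 0.03. Hspa5 (BiP), the HSP70 of that compartment, averaged 340 ± 26.2 CPM after vehicle and 339 ± 40.9 CPM after MMP9 (SD, n = 5). Ddit3 (CHOP), a transcription factor of prolonged stress, had the smallest p of the list, at 19.1 ± 2.00 and 24.5 ± 4.76 CPM (SD, n = 5) with a log2 fold change of 0.36 ± 0.13 (SE, edgeR adjusted p = 0.981). Pdia6, a protein disulfide isomerase, was next at 0.16. Without MMP9 mouse 4 the values of Ddit3 and Pdia6 were 0.23 and 0.10. Among 12 proteasome and ubiquitin genes, 0 were called, and the smallest p belonged to Psmd11 and Vcp, at -0.14 and -0.11.

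Among 15 immediate early genes, which respond to injury and handling within minutes, 0 were called, with a median of -0.10. Dusp1, a phosphatase that ends MAP kinase signalling, averaged 125 ± 24.0 CPM after vehicle and 95.8 ± 18.6 CPM after MMP9 (SD, n = 5), with a log2 fold change of -0.38 ± 0.16 (SE, edgeR adjusted p = 0.981). Zfp36, which speeds the decay of cytokine mRNA, was at -0.23, and at -0.15 without MMP9 mouse 4. In vehicle mouse 1, 1 of the 15 was at least 2-fold above the median of the others. This was Atf3, a stress-induced transcription factor, at 244 CPM there and 26.6 to 127 CPM in the other 9 mice. Vehicle mouse 1 was the highest library for 3 of the 15, against 6.45% of all genes. Besides Atf3 these were Fos, at 59.7 CPM with vehicle mouse 4 at 59.1 CPM, and Btg2, at 129 CPM beside 62.5 to 93.9 CPM. The score of the list, a median over its genes, did not stand out in that mouse, at -0.15 beside -0.56 to 0.19 in the others.

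Genes outside the members whose levels ran most like theirs were listed as a description, among 12508 genes of at least 5 CPM over the 10 libraries. A heat shock score was built in the same way from the 10 members. It averaged 0.01 ± 0.40 after vehicle and -0.18 ± 0.19 after MMP9 (SD, n = 5), and the difference was -0.19, and -0.004 without vehicle mouse 1. Dnajb4 and Dnaja4, both HSP40 cochaperones, Hspb8, a small heat shock protein that partners with Bag3, Rcan1, an inhibitor of calcineurin, and Ccdc9 were the 5 most like this score. Dnajb4 measured 120 CPM in vehicle mouse 1 and 49.9 to 76.1 CPM in the other mice. Hspb8 measured 621 CPM and 229 to 459 CPM in the same way. The 5 most like Hspa1a were Otud1, a deubiquitinase, Pld1, a phospholipase D, Ankrd1 and Klhl40, both known from striated muscle, and Atf3. Ankrd1 was at 333 CPM in vehicle mouse 1 and 41.2 to 167 CPM in the other mice. Pld1 and Ccdc9 differed from the rest in their narrow ranges. Pld1 was at 22.2 CPM in vehicle mouse 1 and 17.6 to 21.0 CPM elsewhere, and Ccdc9 at 51.3 CPM and 43.6 to 46.5 CPM.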

How the data were processed

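The authors deposited 1 table with an estimated read count per gene and library (60.8% of the values are not whole), TPM values scaled by transcript length and by their own sum, and FPKM values scaled by transcript length and library size, per the file headers. Its 6 columns of group means were not used. Reads were single-end and 50 bases long, per the labels' protocols. HISAT and GRCm39 are named, per the submitters' processing notes. Neither the quantifier nor the annotation, read filters or use of strand is given in the sources used here.

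The deposited estimated counts were rounded, and R 4.3.3 with edgeR 4.0.16 was used for the test: TMM factors, filterByExpr by group with a minimum count of 10, a quasi-likelihood fit with treatment as its only term, and Benjamini-Hochberg adjustment over the 15250 of 18994 genes kept (99.95% of the counts). The self-test on simulated counts recovered most of the largest planted changes. Its recovery of smaller changes is not given here. Log2 CPM used a prior count of 2, and intervals are at 95%. Ratios were taken on the deposited TPM values and tested by exact permutation. Correlations used 100000 permutations. DESeq2 1.42.0, limma 3.58.1, other factors and filters, the mouse number as a block and leaving out each mouse were alternatives.

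The mice are numbered separately within each group, and libraries with the same number did not deviate together in every case, so they were not treated as pairs. No libraries were duplicates: the lowest chi-square per gene for any 2 libraries was 17.8. The members, lists and tests were chosen with earlier results of these data known. The named genes are the members, the 2 genes of smallest p in each pathway list, Hsf1, Hsp90ab1, Hspa5 and Hspa9, and the 5 genes most like the score and most like Hspa1a. Other pathway genes were named after their values were seen.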

Additional observations from a re-analysis of the deposited data

Results flagged for a closer look

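In 13 of 80 groups of 5 mice examined, 1 mouse lay far from the others of its group by Dixon's criterion at the 95% level. For independent, normally distributed values chance alone gives about 1 in 20. The values here were unlogged levels and ratios of related genes, some of them chosen from these same data. The count of 13 can therefore not be set against that rate. Vehicle mouse 1 was set apart for Hspa1a at 686 CPM (91.6 to 245 in the other vehicle mice), for Hspa1b at 617 CPM (158 to 262), for Dnajb1 at 186 CPM (83.1 to 92.1), for Hsp90aa1 at 462 CPM (193 to 234) and for Hspe1 at 113 CPM (82.8 to 90.6). In the same mouse the TPM ratio of Hsp90aa1 to Hsp90ab1 was 0.318 (0.134 to 0.165 in the other vehicle mice) and that of Hspa1a plus Hspa1b to Hspa8 was 0.488 (0.125 to 0.219). These 7 values come from 1 library and are not independent of each other.

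MMP9 mouse 4 was set apart for Hspe1 at 169 CPM (80.2 to 90.0 in the other MMP9 mice) and for Cacybp at 128 CPM (65.4 to 76.1). Single mice were set apart for Fkbp5 at 156 CPM in MMP9 mouse 3 (75.5 to 92.6), for Hspa2 at 26.3 CPM in vehicle mouse 3 (19.5 to 20.6), for Ddit3 at 15.6 CPM in vehicle mouse 2 (19.7 to 20.3) and for Psmd11 at 106 CPM in vehicle mouse 5 (117 to 121).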

How the results depend on the processing

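The count of heat shock genes called stayed at 0 under all 21 alternatives. Over all genes, DESeq2 called 1 and the other alternatives 0. Bag3, Hspb1 and Hspd1 kept an estimate below 0 throughout, with ranges of -0.57 to -0.17, -0.35 to -0.11 and -0.14 to -0.016 when 1 mouse was left out. Leaving out each mouse in turn, the log2 fold change ranged from -1.06 to 0.00066 for Hspa1a, -0.12 to 0.073 for Hsph1, -0.34 to 0.039 for Dnajb1, -0.11 to 0.034 for Hspa8, -0.25 to 0.19 for Hsp90aa1 and -0.12 to 0.23 for Hspe1, and the log2 difference of the Hsp90aa1 to Hsp90ab1 ratio from -0.15 to 0.18. The other ratios ranged from -0.61 to -0.12 for Hspa1a plus Hspa1b to Hspa8 and from 0.012 to 0.27 for Hspe1 to Hspd1. Without both vehicle mouse 1 and MMP9 mouse 4, a choice made after seeing the data, the log2 values were 0.14 for Hspa1a, 0.027 for Hspa1b, 0.073 for their sum, 0.10 for Hsph1, 0.028 for Dnajb1, 0.046 for Hsp90aa1, -0.038 for Hspe1, 0.071 for the Hsp90aa1 to Hsp90ab1 ratio and 0.10 for the ratio of Hspa1a plus Hspa1b to Hspa8. With upper-quartile factors Hsph1 was at 0.0079. These values all lie in tests that did not pass in either direction. The count of member pairs past the threshold ranged from 5 (without vehicle mouse 1) to 31 (without MMP9 mouse 4) when 1 mouse was left out, and was 13 without MMP9 mouse 5. The cause was not tested. The lowest count of a member was 529.

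With the mouse number as a replicate block, 0 members and 0 of all genes were called by edgeR, and 554 genes had an unadjusted p under 0.05, against 487 without it. The deviations of same-numbered libraries correlated at -0.24, -0.05, 0.46, 0.14 and 0.20, and 2 of the 5 vehicle libraries correlated best with their own number. These few correlations cannot show whether mice of the same number share more than the number, such as a day or a cage.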
